A study of Mus musculus with 14 samples.

Results

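Chemokines and their receptors were followed through 5 weeks of mouse mammary gland puberty. The members were taken from the array annotation by gene symbol: every probe set that names a single gene of the Ccl, Cxcl, Cx3c, Xcl1, Ccr, Cxcr or Ackr series, with Ccl28 left out. This gave 68 of the 22690 probe sets on the array, for 51 of the 12393 genes named by 1 symbol. They are 31 ligands on 40 probe sets, 16 signalling receptors on 23 and 4 atypical receptors on 5. The glands were the whole number 4 inguinal glands of untreated female CD1 mice, an outbred stock, at 3wk, 4wk, 5wk, 6wk and 7wk of age, with the lymph nodes taken out before RNA was extracted. There were 3 arrays at each age except 5wk, which had 2, so 14 in all, and every pool held RNA of at least 3 animals. The sources used here do not say whether pools shared animals, and p-values therefore reflect only how far pools differ.

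Chemokines are small secreted proteins that steer leukocytes along gradients held on glycosaminoglycans, and they act through receptors coupled to inhibitory G proteins. Atypical receptors bind chemokines without that signal and mostly clear or carry them. In the pubertal mouse gland, macrophages and eosinophils gather around the terminal end buds from which the ducts grow, and Ccl11 is known there as an attractant of eosinophils. The gland also holds epithelium, fat, vessels and resident lymphocytes, each of which can make or answer chemokines. In whole tissue, fewer cells of a type and less RNA per cell cannot be told apart.

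The promoters of 3 genes are printed because the largest called differences of the family concern them: Cxcl15, Cxcl14 and Cx3cl1. Each holds the 250 bases before and the 50 bases after the gene's start, 5′ to 3′ on the gene's own strand, from RefSeq on build GRCm38.p6. A promoter of this kind was matched for 38 of the 51 genes, with 42 promoters in all. Capitals mark matches, on either strand, to the TATA box letters TATAAA or the STAT letters TTCNNNGAA, which did not overlap. The first lies at chr5:90794284-90794583, the second at chr13:56296502-56296801 on the minus strand and the third at chr8:94771930-94772229.
Cxcl15: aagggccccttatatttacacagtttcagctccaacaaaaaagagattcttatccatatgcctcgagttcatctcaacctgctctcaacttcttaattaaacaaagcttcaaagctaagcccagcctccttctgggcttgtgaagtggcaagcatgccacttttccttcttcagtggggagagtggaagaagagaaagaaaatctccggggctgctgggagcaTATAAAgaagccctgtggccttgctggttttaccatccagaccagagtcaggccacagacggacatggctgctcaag
Cxcl14: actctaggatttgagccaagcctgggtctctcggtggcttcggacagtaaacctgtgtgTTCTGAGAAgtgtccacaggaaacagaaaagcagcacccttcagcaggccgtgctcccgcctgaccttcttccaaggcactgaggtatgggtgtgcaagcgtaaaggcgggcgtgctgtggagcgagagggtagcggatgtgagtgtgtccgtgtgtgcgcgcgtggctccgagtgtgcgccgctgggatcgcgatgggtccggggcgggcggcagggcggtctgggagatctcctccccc
Cx3cl1: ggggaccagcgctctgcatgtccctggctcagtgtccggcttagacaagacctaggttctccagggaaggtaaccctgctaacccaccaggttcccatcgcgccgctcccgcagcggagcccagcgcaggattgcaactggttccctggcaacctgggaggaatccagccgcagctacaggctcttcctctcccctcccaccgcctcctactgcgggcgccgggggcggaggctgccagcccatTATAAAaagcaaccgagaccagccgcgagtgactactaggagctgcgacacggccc
In Cxcl15 the capitals begin 27 bases before the start and are TATAAA, in Cx3cl1 they begin 6 bases before it and are TATAAA too, and in Cxcl14 they begin 191 bases before it and match the STAT letters. Of the 42 member promoters, 12 held TATAAA and 4 the STAT letters. Among 32851 RefSeq promoters of this length the shares were 13.6% and 8.3%. These are letter matches in a short window.

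The deposited values are ratios: the authors had set every probe set relative to its median array, so 1 is the probe set's middle array and levels of different genes cannot be compared. Differences below are on the log2 ratio scale with no offset, later age minus earlier age, and a probe set is called when its adjusted p is under 0.05 over all 22626 non-control probe sets. The F test over the 5 ages called 5 of the 68 (7.35%), against 6.55% of all probe sets. At 7wk against 3wk 4 were called, all higher, where 5.59% of all probe sets were called and 3.9% called higher. At 6wk against 3wk 5 were called, all higher, against 9.22% of all probe sets and 6.06% called higher. At 5wk against 3wk 3 were called, all higher, against 2.2% of all and 1.5% called higher. Between neighbouring weeks the counts were 0 at 4wk against 3wk (0.0398% of all probe sets), 2 higher at 5wk against 4wk (0.323% of all, 0.155% higher), 0 at 6wk against 5wk (0.168%) and 0 at 7wk against 6wk (0.42%). By limma's unadjusted p under 0.05, the comparisons with a count of 0 had 6 members (8.82%, against 8.96% of all probe sets), 6 (8.82%, against 9.4%) and 9 (13.2%, against 12.3%), close to the shares of all. The members' shares called thus lay close to those of all probe sets in the F test and at 7wk against 3wk.

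None of the 68 probe sets was called lower in any of the 7 comparisons, where 1.69%, 3.15% and 0.703% of all probe sets were called lower at 7wk, 6wk and 5wk against 3wk. A probe set that reads copies of Ccl21 together with other genes, and so is no member, was called lower at 6wk and 5wk against 3wk. The genes called were Cxcl15, Cxcl14, Cx3cl1, Cxcl12 and Ccl7, all of them ligands, and none of the 28 receptor probe sets was called. Leaving out 1 array gave 3 or 4 calls by the F test in place of 5, and 3 without 3wk B or C, any of the 4wk arrays, 5wk B, 6wk A or C, or 7wk C. Removing 7wk A left 2 calls at 7wk against 3wk, and removing 3wk A or C or 6wk A or C left 3 at 6wk against 3wk. Between 5wk and 4wk the count was 0 with the removal of 4wk B, 5wk A or 5wk B, 2 with that of 4wk C, and 1 with that of any other array.

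Members varied more between arrays of the same age than most probe sets. Their median SD within an age was 0.56 on the log2 scale, against 0.32 over all probe sets, and 28 of the 68 lay above the upper quartile of all. The median log2 difference of the members from 3wk was 0.01 at 7wk (0.06 over all probe sets), 0.04 at 6wk (0.03) and 0.19 at 5wk (0.04). It was below 0 at 4wk, -0.09 (0.04). The heat map of age means shows where each probe set was highest, by its mean log2 ratio as everywhere below unless stated. That was 5wk for 20 members (29.4%, against 18.9% of all probe sets) and 7wk for 20 (29.4%, against 20.8%), against 14 at 3wk (20.6%, against 18.2%). Fewer were highest at 4wk, 6 (8.82%, against 18.4%), or at 6wk, 8 (11.8%, against 23.7%). The lowest age was 4wk for 18 members (26.5%, against 17.1%) and 5wk for 5 (7.35%, against 20%). Array 5wk B was the highest of all arrays for 11 members (16.2%, against 7.03%) and array 7wk C for 10 (14.7%, against 7.2%), and array 3wk A was the lowest for 14 (20.6%, against 14.9%).

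**Figure D1:**
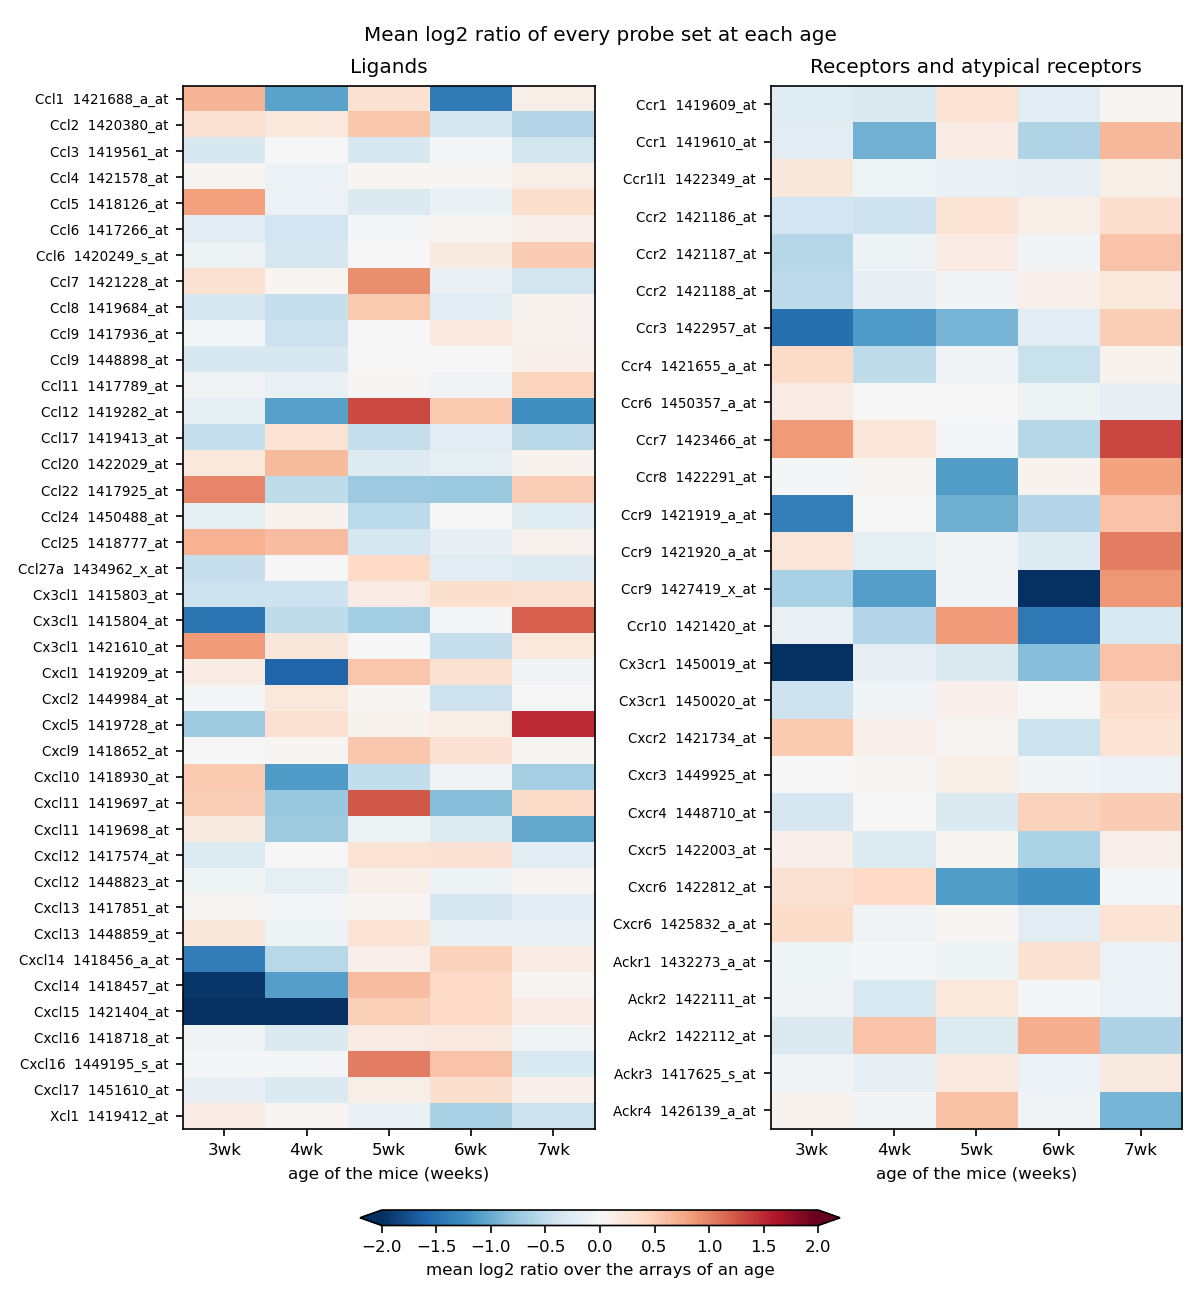
Mean log2 ratio at each age (columns, 3wk to 7wk) for the 40 ligand probe sets on the left and the 28 receptor and atypical receptor probe sets on the right, blue below and red above the probe set's median array, with colours ending at -2 and 2. The 2 Cxcl14 probe sets and Cxcl15 pass from blue at 3wk to red or pale red from 5wk on, and most other members show weak or scattered colour.

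Cxcl15, the mouse neutrophil attractant first described in lung epithelium as lungkine, had the largest called difference of the family. Its ratios were 0.071, 0.118 and 0.124 at 3wk, 0.363, 0.192 and 0.175 at 4wk, 1.34 and 1.43 at 5wk, 1.35, 1.14 and 1.51 at 6wk, and 0.888, 1.42 and 1.11 at 7wk (1421404_at). All 6 arrays at 3wk and 4wk lay below all 8 later arrays, and the 3wk arrays lay below the 4wk arrays. The mean ratio was 1.14 ± 0.268 at 7wk and 0.104 ± 0.029 at 3wk (SD, n = 3 each), a difference of 3.47 (SE 0.31, adjusted p 0.000207), or 11.1-fold. It rose by 3.71 at 6wk against 3wk (SE 0.31, adjusted p 0.000161) and by 3.77 at 5wk against 3wk (SE 0.34, adjusted p 0.00119). The step lay between 5wk and 4wk, where the difference was 2.59 (SE 0.34, adjusted p 0.0204). At 4wk against 3wk it was 1.18 (SE 0.31, adjusted p 0.24), not called, and from 5wk on the weekly differences were -0.07 and -0.24. The call at 5wk against 4wk was lost without 4wk B (adjusted p 0.0761), 5wk A (0.0636) or 5wk B (0.0732), and with the letter as a block (0.0709). The other 3 calls and the F test held under all 24 alternatives. The size varied, with the 7wk against 3wk difference running from 1.96 to 4.07 over those alternatives. The low end came with 0.25 added to each ratio, an offset that shrinks a difference from low ratios.

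Its neighbours on chromosome 5 that were measured, Cxcl1 and Cxcl2, attract neutrophils through Cxcr2. Cxcl1 had ratios of 0.343, 1.69 and 2.33 at 3wk, 0.322, 0.526 and 0.208 at 4wk, 2.11 and 1.02 at 5wk, 2.03, 0.984 and 0.935 at 6wk, and 1.94, 0.358 and 1.26 at 7wk (1419209_at). The 3 arrays of Cxcl1 at 4wk were among the 5 lowest and lay below all 5wk and 6wk arrays, while all other pairs of ages overlapped. Cxcl2 had 1.28, 0.677 and 1.07 at 3wk, 1.46, 1.01 and 1.05 at 4wk, 0.862 and 1.21 at 5wk, 0.505, 0.891 and 0.938 at 6wk, and 0.988, 0.845 and 1.17 at 7wk (1449984_at). All 4wk arrays lay above all 6wk arrays, and the other ages overlapped with each. At 7wk against 3wk the differences were -0.21 for Cxcl1 (SE 0.78, adjusted p 0.92) and 0.02 for Cxcl2 (SE 0.30, adjusted p 0.98).

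Cxcl14, a chemokine that epithelia such as skin make without inflammation, rose on both of its probe sets. The first had ratios of 0.271, 0.213 and 0.308 at 3wk, 0.292, 0.513 and 0.681 at 4wk, 1.47 and 1.59 at 5wk, 1.28, 1.5 and 1.2 at 6wk, and 1.12, 1.04 and 0.962 at 7wk (1418457_at). Every array at 5wk, 6wk and 7wk lay above every array at 3wk and 4wk. The second had ratios of 0.463, 0.342 and 0.351 at 3wk, 0.447, 1.04 and 0.677 at 4wk, 1.21 and 0.962 at 5wk, 1.41, 1.14 and 1.59 at 6wk, and 1.3, 1.22 and 0.866 at 7wk (1418456_a_at). The 3wk arrays lay below all arrays from 5wk on, while 4wk B reached into the later ages.

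At 7wk the mean ratio of the first was 1.04 ± 0.0785, against 0.264 ± 0.0479 at 3wk (SD, n = 3 each), a difference of 1.99 (SE 0.27, adjusted p 0.00216) or 3.98-fold. For the second the 7wk difference was 1.54 (SE 0.29, adjusted p 0.0126). At 6wk against 3wk the pair gave 2.34 and 1.84 (adjusted p 0.00077 and 0.00404). At 5wk against 3wk they gave 2.55 and 1.50 (adjusted p 0.00249 and 0.0409). The first was also called at 5wk against 4wk, 1.71 (SE 0.30, adjusted p 0.0474), and there the second had 0.66 (adjusted p 0.425). Both were called by the F test, with adjusted p 0.00167 and 0.0164.

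Some Cxcl14 calls were lost when 1 array was left out. The 5wk against 4wk call of the first probe set was lost without any 1 array but 4wk C (adjusted p 0.0577 to 0.195). Its difference stayed at 1.71 without any 1 of the 3wk, 6wk or 7wk arrays, which do not enter it. For the second, the 5wk call was lost without any 1 of the 3wk, 5wk or 6wk arrays, 4wk C, 7wk A or 7wk B (0.0533 to 0.218), the 7wk call without 7wk A (0.0502), and the F call without 3wk B (0.0583) or 3wk C (0.0573). Over all 24 alternatives, the first lost its 5wk against 4wk call in 18 and its 7wk call in 1, and the second lost its 5wk call in 15, its F call in 3, its 7wk call in 2 and its 6wk call in 1.

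Cx3cl1, or fractalkine, is a chemokine tethered to the membrane that binds Cx3cr1, and it is read by 3 probe sets. One of them had ratios of 0.691, 0.892 and 0.661 at 3wk, 0.778, 0.684 and 0.784 at 4wk, 1.08 and 1.15 at 5wk, 1.45, 0.997 and 1.35 at 6wk, and 1.45, 1 and 1.3 at 7wk (1415803_at). Every array at 3wk and 4wk lay below every later array. The difference was 0.74 at 7wk (SE 0.19, adjusted p 0.0496) and 0.75 at 6wk (SE 0.19, adjusted p 0.0338) against 3wk, and the F test gave 0.0492. These 3 adjusted p lie just under the threshold. The 7wk call was lost without any 1 of 3wk A or C, the 4wk or 5wk arrays, 6wk A or C, or 7wk A or C (0.0546 to 0.164), and the 6wk call without 3wk A or C or 6wk A or C (0.0951 to 0.113). The F call was lost without any 1 array but 6wk B or 7wk B (0.0526 to 0.103). Over all 24 alternatives, the 7wk call was lost in 21, among them both offsets, both normalizations, array weights, robust moderation and the letter as a block (0.0731), the F call in 20 and the 6wk call in 9 (0.0508 with the block).

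The other probe sets of Cx3cl1 were not called. The second had 0.404, 0.718 and 0.164 at 3wk, 0.35, 0.948 and 1.05 at 4wk, 1.16 and 0.331 at 5wk, 0.397, 1.11 and 2.07 at 6wk, and 2.64, 2.34 and 1.94 at 7wk (1415804_at). Its 7wk arrays lay above all 3wk arrays, and the difference was 2.66 (SE 0.73, adjusted p 0.061). The third had 0.437, 2.94 and 4.63 at 3wk, 4.32, 0.256 and 1.43 at 4wk, 0.341 and 2.89 at 5wk, 0.547, 2.79 and 0.252 at 6wk, and 0.368, 0.571 and 7.37 at 7wk (1421610_at). Its arrays scattered within every age, with an SD of 2.02 on the log2 scale, and the 7wk difference was -0.65 (SE 1.51, adjusted p 0.867).

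Cxcl12 is made by stromal cells and binds Cxcr4 and Ackr3. Its first probe set had ratios of 0.892, 0.849 and 0.758 at 3wk, 1.02, 0.946 and 1.01 at 4wk, 1.04 and 1.39 at 5wk, 1.2, 1.26 and 1.2 at 6wk, and 0.988, 0.759 and 0.827 at 7wk (1417574_at). The 6wk arrays lay close together and above all arrays of 3wk, 4wk and 7wk. It rose by 0.55 at 6wk against 3wk (SE 0.15, adjusted p 0.0394), and at 7wk against 3wk the difference was 0.04 (adjusted p 0.925). The 6wk call was lost without any 1 of the 3wk, 4wk or 6wk arrays or 7wk C (0.0522 to 0.117), and in 16 of the 24 alternatives in all, among them both normalizations and the letter as a block (0.064). The second probe set had 0.713, 1.04 and 1.12 at 3wk, 0.755, 0.806 and 1.09 at 4wk, 0.929 and 1.24 at 5wk, 0.938, 0.817 and 1.04 at 6wk, and 0.963, 1.1 and 1.05 at 7wk (1448823_at). Its ages overlapped and its 6wk difference was -0.02 (SE 0.21, adjusted p 0.972), so the pair did not give the same result.

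Ccl7, a monocyte attractant that acts mainly through Ccr2, was called by the F test alone (adjusted p 0.0348). Its ratios were 1.2, 1 and 1.59 at 3wk, 1.16, 0.929 and 1 at 4wk, 1.61 and 2.27 at 5wk, 0.919, 0.822 and 1.02 at 6wk, and 0.915, 0.685 and 0.753 at 7wk (1421228_at). Both 5wk arrays lay above all others, and all 7wk arrays lay below all 3wk and 4wk arrays. The mean was 1.94 ± 0.47 at 5wk (SD, n = 2) and 1.03 ± 0.117 at 4wk (SD, n = 3), a difference of 0.90 (SE 0.23, adjusted p 0.137). At 6wk against 5wk it was -1.06 (SE 0.23, adjusted p 0.154) and at 7wk against 3wk -0.67 (SE 0.21, adjusted p 0.0908), neither called. The F call was lost without 3wk A, any 1 of the 4wk or 6wk arrays, 5wk B, 7wk B or 7wk C (0.0508 to 0.134), with the letter as a block (0.0566), and in 13 of the 24 alternatives in all.

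**Figure D2:**
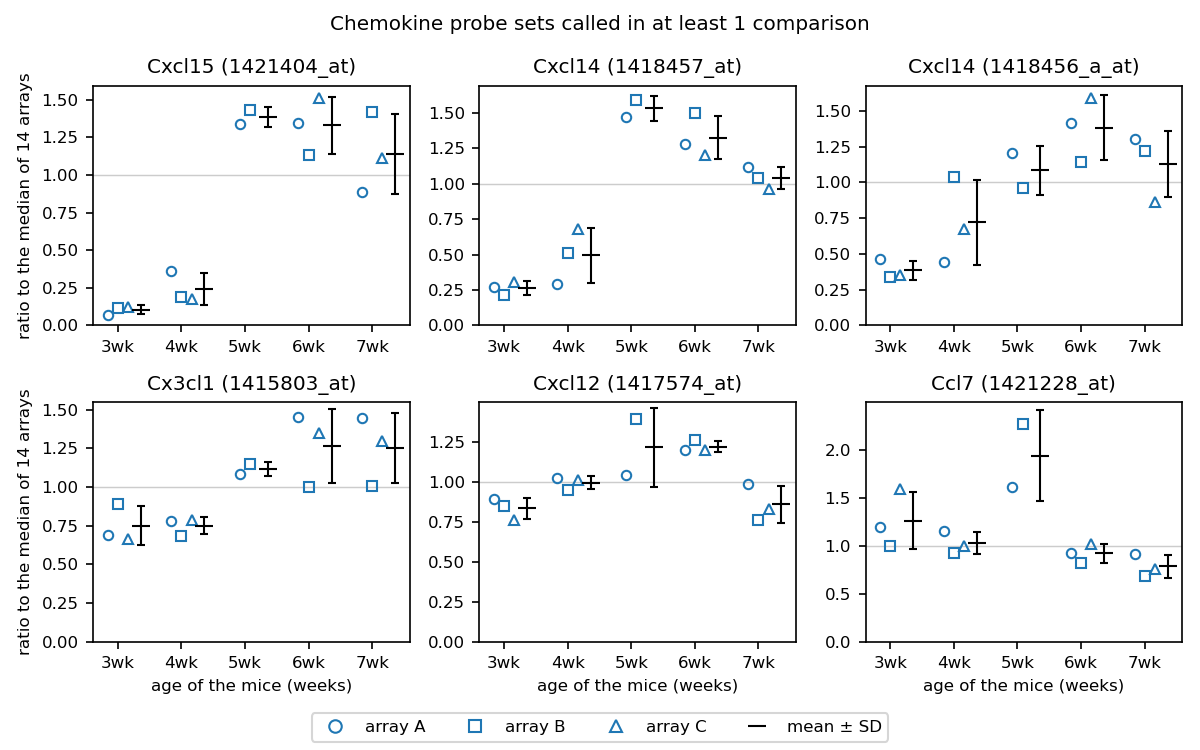
Ratio to the probe set's median array (y axis, from 0) by age in weeks (x axis) for the 6 probe sets called in at least 1 test, with a symbol for each array and the mean ± SD of each age in black (n = 3, and 2 at 5wk). Cxcl15 and Cxcl14 (1418457_at) show 3wk and 4wk arrays below all later ones, and Ccl7 peaks at 5wk, where its 2 arrays stood at 1.61 and 2.27.

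Epithelial markers moved with Cxcl15 and Cxcl14. All 7 luminal epithelium markers measured (Krt8, Krt18, Krt19, Epcam, Elf5, Cdh1 and Muc1) were called higher at 7wk and at 6wk against 3wk, and 6 of 7 at 5wk. Over genes, taken as the mean of their probe sets, 6.5%, 9.29% and 3.03% of all 12393 were called in those comparisons. The mean log2 ratio of the list ranged over the arrays from 0.59 to 0.85 at 7wk, 0.27 to 1.18 at 6wk and 0.04 to 0.42 at 5wk, against -1.36 to -0.71 at 4wk and -2.39 to -1.72 at 3wk. Of the 7 basal epithelium markers, 3 were called higher at 7wk (Krt14, Cnn1 and Oxtr), and the list ran from 0.04 to 0.28 at 7wk and -1.05 to -0.77 at 3wk. Skin keratinocyte markers, 5 measured, had 0 calls in every comparison by limma, and their mean ran from -0.20 to 0.49 at 7wk and -0.45 to 0.47 at 3wk. A marker cannot be shown to be at 0 on ratios. The part of the epithelium in the rise of Cxcl15, Cxcl14 or Cx3cl1 was not tested.

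**Figure D3:**
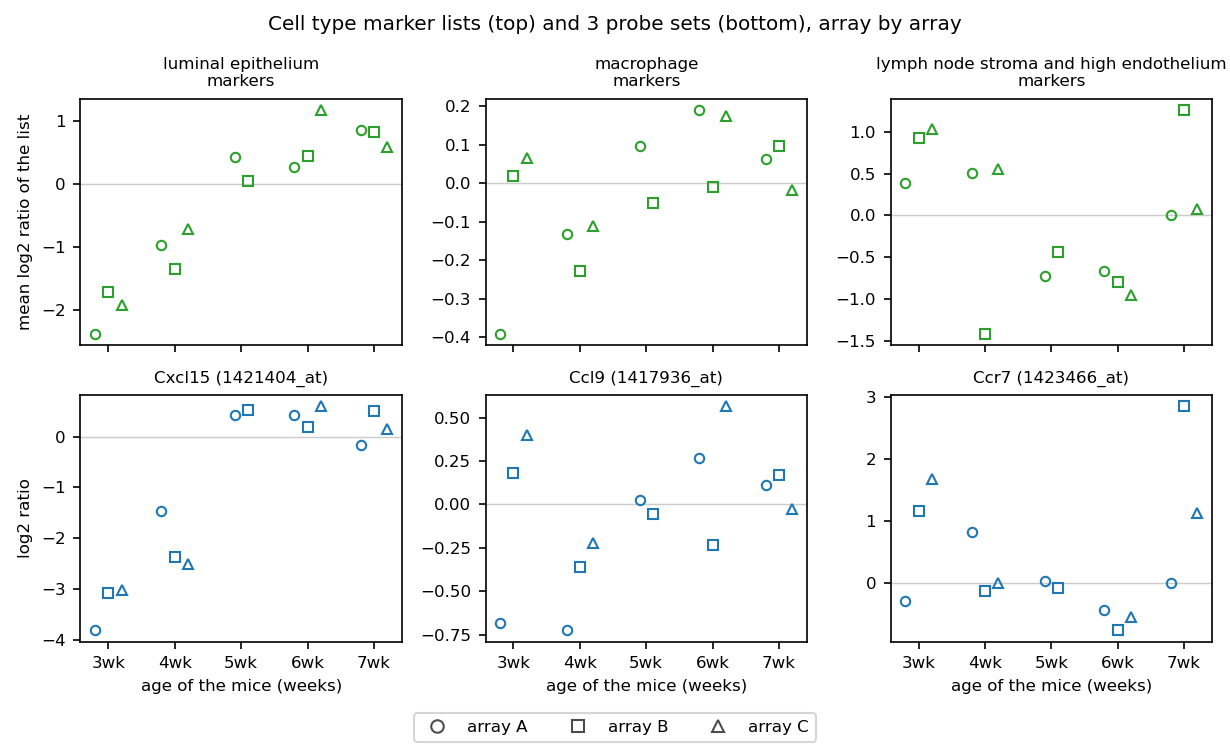
Top, mean log2 ratio of the luminal epithelium (7 genes), macrophage (9) and lymph node stroma and high endothelium (7) markers on each array by age in weeks, and bottom, log2 ratio of Cxcl15, Ccl9 and Ccr7 on the same arrays, with a symbol for each array letter. The y axes differ. Luminal markers and Cxcl15 were low at 3wk and 4wk, and the macrophage list and Ccl9 had 3wk A low. The lymph node list and Ccr7 were low on all 6wk arrays, but the list was lowest on 4wk B, where Ccr7 stood above all 6wk arrays.

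The remaining CXC ligands were not called in any test. Cxcl5, another Cxcr2 ligand, had 0.162, 0.346 and 4.13 at 3wk, 0.342, 7.24 and 0.766 at 4wk, 1.04 and 1.06 at 5wk, 0.39, 3.54 and 0.957 at 6wk, and 8.48, 5.07 and 0.526 at 7wk (1419728_at). High and low arrays occurred together at 3wk, 4wk, 6wk and 7wk, with an SD within an age of 2.02 on the log2 scale. Cxcl9, Cxcl10 and Cxcl11 are induced by interferon and bind Cxcr3 on activated T cells. Cxcl9 had 0.812, 1.17 and 1.02 at 3wk, 1.48, 0.864 and 0.851 at 4wk, 2.67 and 0.787 at 5wk, 1.67, 1.22 and 0.908 at 6wk, and 0.977, 1.27 and 0.878 at 7wk (1418652_at). Cxcl10 had 1.26, 1.48 and 1.61 at 3wk, 0.245, 0.336 and 1.15 at 4wk, 2.55 and 0.197 at 5wk, 0.451, 2.16 and 0.892 at 6wk, and 1.11, 0.277 and 0.815 at 7wk (1418930_at). The 5wk arrays of both were far apart, with 5wk A high and 5wk B low. Cxcl11, on 2 probe sets, was highest at 5wk on 1419697_at and lowest at 7wk on 1419698_at, with ratios between 0.123 and 4.75 over both. Their F tests gave adjusted p of 0.834 for Cxcl9, 0.687 for Cxcl10, and 0.306 and 0.822 for Cxcl11.

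Cxcl13 draws B cells into follicles through Cxcr5. It had 1.33, 1.54 and 0.543 at 3wk, 0.971, 0.655 and 1.44 at 4wk, 1.06 and 1.03 at 5wk, 1.24, 0.584 and 0.71 at 6wk, and 0.581, 1.11 and 0.958 at 7wk (1417851_at) and, on its other probe set, 1.12, 1.66 and 0.867 at 3wk, 0.806, 1.14 and 0.895 at 4wk, 1.3 and 1.12 at 5wk, 1.54, 0.516 and 0.956 at 6wk, and 0.751, 1.02 and 0.98 at 7wk (1448859_at). The ages overlapped, except that both 5wk arrays lay above all 7wk arrays on the second. Cxcl16, a membrane-bound ligand of Cxcr6, had 1.41, 0.88 and 0.76 at 3wk, 0.947, 1.02 and 0.979 at 4wk, 2.47 and 1.68 at 5wk, 1.17, 1.41 and 1.97 at 6wk, and 0.756, 0.875 and 0.799 at 7wk on a probe set (1449195_s_at) whose suffix marks that it may read more than 1 transcript. Both 5wk arrays lay above all 4wk arrays and, with 6wk C, above all others, and the F test gave an adjusted p of 0.056, just above the threshold. Its second probe set had 1.01, 1.17 and 0.742 at 3wk, 0.995, 1.02 and 0.531 at 4wk, 0.859 and 1.47 at 5wk, 1.45, 0.897 and 1.16 at 6wk, and 0.902, 0.979 and 1 at 7wk (1418718_at). There the ages overlapped, with an adjusted p of 0.71. Cxcl17, a chemokine of mucosal surfaces, was highest at 6wk and lowest at 4wk, with ratios from 0.699 to 1.37 and an F test at 0.2.

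Among the CC ligands of monocytes and macrophages, Ccl2 acts through Ccr2 and lies beside Ccl7 on chromosome 11. Ccl2 had ratios of 1.26, 0.936 and 1.59 at 3wk, 0.954, 1.22 and 1.35 at 4wk, 1.13 and 1.89 at 5wk, 0.665, 0.688 and 1.05 at 6wk, and 0.874, 0.834 and 0.407 at 7wk (1420380_at). All 7wk arrays lay below all 3wk and 4wk arrays, as they did for Ccl7, but the 7wk difference of -0.89 (SE 0.34, adjusted p 0.178) was not called. Ccl8, which acts through Ccr8 in mice, had 0.463, 1.05 and 1.01 at 3wk, 0.623, 0.664 and 0.938 at 4wk, 1.42 and 1.44 at 5wk, 0.989, 0.555 and 1.18 at 6wk, and 0.946, 1.2 and 1.02 at 7wk (1419684_at). Both 5wk arrays lay above all others, at adjusted p 0.321 against 3wk. Ccl12, a mouse Ccr2 ligand, was also highest at 5wk. Its lowest age was 7wk by mean log2 ratio and 4wk by mean ratio, and it ran from 0.0978 to 3.19 over the arrays, with an F test at 0.331. Both ligand genes next to Ccl7 in RefSeq order, Ccl2 and Ccl11, were thus without a call.

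Ccl11, or eotaxin, draws eosinophils through Ccr3. It had ratios of 1.17, 0.774 and 0.957 at 3wk, 0.873, 1.02 and 0.863 at 4wk, 1.03 and 0.996 at 5wk, 0.94, 0.933 and 1 at 6wk, and 1.4, 1.05 and 1.69 at 7wk (1417789_at). The arrays of 3wk to 6wk lay near 1 and overlapped, while 7wk A and C were the highest of all 14. The 7wk difference was 0.50 (SE 0.19, adjusted p 0.177) and was not called. Ccl24, a second eotaxin, was highest at 4wk and lowest at 5wk by its mean log2 ratio, and its ratios ran from 0.395 to 1.52 (F test 0.875). Eosinophil markers, 5 measured, had 0 calls in every comparison by limma, and their mean log2 ratio was -0.37, -0.48, -0.41, 0.04 and 0.16 from 3wk to 7wk.

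Ccl6 and Ccl9 are rodent CC ligands of Ccr1, and each has 2 probe sets. Ccl6 had 0.619, 1 and 1 at 3wk, 0.635, 0.754 and 0.946 at 4wk, 1.01 and 0.927 at 5wk, 1.27, 0.707 and 1.26 at 6wk, and 1.02, 1.01 and 1.2 at 7wk (1417266_at) and 0.701, 0.99 and 1.18 at 3wk, 0.854, 0.796 and 0.722 at 4wk, 0.982 and 1.01 at 5wk, 1.41, 0.643 and 1.6 at 6wk, and 1.46, 1.37 and 1.42 at 7wk (1420249_s_at). On both, the 7wk arrays lay above all 3wk, 4wk and 5wk arrays, on the first only narrowly (7wk B at 1.015, 5wk A at 1.012). The differences from 3wk were 0.33 on the first (SE 0.27, adjusted p 0.561) and 0.60 on the second (SE 0.30, adjusted p 0.314). Ccl9 had 0.622, 1.13 and 1.32 at 3wk, 0.605, 0.779 and 0.857 at 4wk, 1.02 and 0.963 at 5wk, 1.21, 0.851 and 1.48 at 6wk, and 1.08, 1.12 and 0.982 at 7wk (1417936_at) and 0.459, 0.991 and 1.13 at 3wk, 0.766, 0.651 and 1.03 at 4wk, 0.961 and 1.05 at 5wk, 1.01, 0.691 and 1.4 at 6wk, and 0.89, 1.08 and 1.27 at 7wk (1448898_at). Array 3wk A was the lowest or next to lowest for all 4 probe sets. On the same array the 9 macrophage markers had their lowest mean log2 ratio, -0.39, against -0.23 to 0.19 on the other 13 arrays. Of those 9 markers Cd14 alone was called, higher at 7wk, 6wk and 5wk against 3wk.

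Ccl5, made by T cells among others, had 0.857, 2.79 and 2.3 at 3wk, 1.74, 0.566 and 0.785 at 4wk, 1.43 and 0.47 at 5wk, 0.759, 1.02 and 0.977 at 6wk, and 0.837, 2.15 and 1.16 at 7wk (1418126_at). Arrays 3wk B, 3wk C and 7wk B were the highest and the ages overlapped (F test 0.606). Ccl3 and Ccl4, which attract monocytes and T cells, had ratios from 0.464 to 1.58 and from 0.836 to 1.3, with F tests at 0.959 and 0.829. Ccl3 was highest at 4wk and lowest at 7wk, and Ccl4 was highest at 7wk and lowest at 4wk. Ccl1, a Ccr8 ligand, was the nearest to a call downwards: its ratios were 0.393, 0.536 and 0.263 at 6wk, against 1.65, 2.14 and 1.15 at 3wk. That difference was -2.07 (SE 0.59, adjusted p 0.0534).

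Ccl17 and Ccl22, the ligands of Ccr4 that flank Cx3cl1 on chromosome 8, were not called. Ccl17 ran from 0.135 to 1.92 with its highest mean at 4wk, and Ccl22 from 0.222 to 3.51 with its highest at 3wk. The lowest age turned on the scale: by mean log2 ratio it was 7wk for Ccl17 and 6wk for Ccl22, and by mean ratio 3wk and 5wk. Their F tests gave 0.922 and 0.459. Ccl25, which binds Ccr9, had 3.99, 0.99 and 1.06 at 3wk, 1.12, 3.2 and 1.01 at 4wk, 0.97 and 0.642 at 5wk, 1.04, 0.983 and 0.689 at 6wk, and 0.723, 0.577 and 2.85 at 7wk (1418777_at). A single array at 3wk, 4wk and 7wk stood far above the others of its age. Ccl27a, a skin ligand of Ccr10, had 0.271, 1.19 and 1.19 at 3wk, 0.947, 0.878 and 1.2 at 4wk, 1.23 and 1.43 at 5wk, 0.705, 0.75 and 1.24 at 6wk, and 0.905, 0.617 and 1.05 at 7wk on 1434962_x_at, a probe set marked as one that may hybridise to other transcripts. Array 3wk A was the lowest and the other 13 lay between 0.617 and 1.43. Ccl20, the Ccr6 ligand, ran from 0.523 to 6.71 with 4wk B alone above 1.67, and Xcl1, which draws a class of dendritic cells, from 0.241 to 1.67 with its highest mean at 3wk and its lowest at 6wk. Ccl20 was highest at 4wk and lowest at 5wk.

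No signalling receptor was called in any comparison. Ccr2, which brings monocytes out of the blood, has 3 probe sets. The one with the smallest spread had ratios of 0.469, 0.947 and 0.751 at 3wk, 0.98, 0.869 and 0.842 at 4wk, 0.908 and 1.02 at 5wk, 1.18, 1.03 and 1.02 at 6wk, and 1.14, 1.04 and 1.3 at 7wk (1421188_at). All 7wk and 6wk arrays lay above all 3wk arrays, and the differences from 3wk were 0.74 at 7wk (SE 0.22, adjusted p 0.0858) and 0.63 at 6wk (SE 0.22, adjusted p 0.103). The others had 0.5, 0.861 and 1.05 at 3wk, 0.697, 0.666 and 0.922 at 4wk, 1.39 and 1.05 at 5wk, 1.61, 0.781 and 1.03 at 6wk, and 0.97, 1.84 and 1.14 at 7wk (1421186_at) and 0.311, 1 and 0.986 at 3wk, 1.43, 0.928 and 0.607 at 4wk, 1.43 and 0.871 at 5wk, 1.07, 0.995 and 0.837 at 6wk, and 1.26, 1.36 and 1.92 at 7wk (1421187_at). Their 7wk differences were 0.72 and 1.14 (adjusted p 0.293 and 0.191), positive on all 3 probe sets. Array 3wk A was the lowest of the 14 on each.

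Arrays of 7wk and 3wk did not overlap for 17 of the 68 members (25%, against 25.3% of all probe sets). Cxcr4, the receptor of Cxcl12, was among them. Its ratios were 0.712, 0.791 and 0.873 at 3wk, 1.23, 0.881 and 0.9 at 4wk, 0.722 and 0.922 at 5wk, 1.11, 1.26 and 1.89 at 6wk, and 1.69, 1.08 and 1.58 at 7wk (1448710_at). All 6wk and 7wk arrays lay above all 3wk and 5wk arrays, while 4wk A reached into their range. The differences of 0.85 at 7wk (SE 0.24, adjusted p 0.0712) and 0.81 at 6wk (SE 0.24, adjusted p 0.063) against 3wk missed the threshold. Cx3cr1, the receptor of Cx3cl1 on monocytes and macrophages, had 0.15, 0.128 and 0.337 at 3wk, 1.48, 0.284 and 1.71 at 4wk, 1.17 and 0.57 at 5wk, 0.149, 1.23 and 0.928 at 6wk, and 2.12, 1.44 and 1.07 at 7wk (1450019_at) and 0.714, 1.24 and 0.471 at 3wk, 0.77, 1.28 and 0.896 at 4wk, 1.2 and 0.95 at 5wk, 0.933, 0.914 and 1.14 at 6wk, and 1.12, 1.05 and 1.69 at 7wk (1450020_at). The first had its 7wk arrays above all 3wk arrays, with a difference of 2.99 (SE 0.86, adjusted p 0.0714), and the second overlapped, with 0.75 (SE 0.33, adjusted p 0.247).

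**Figure D4:**
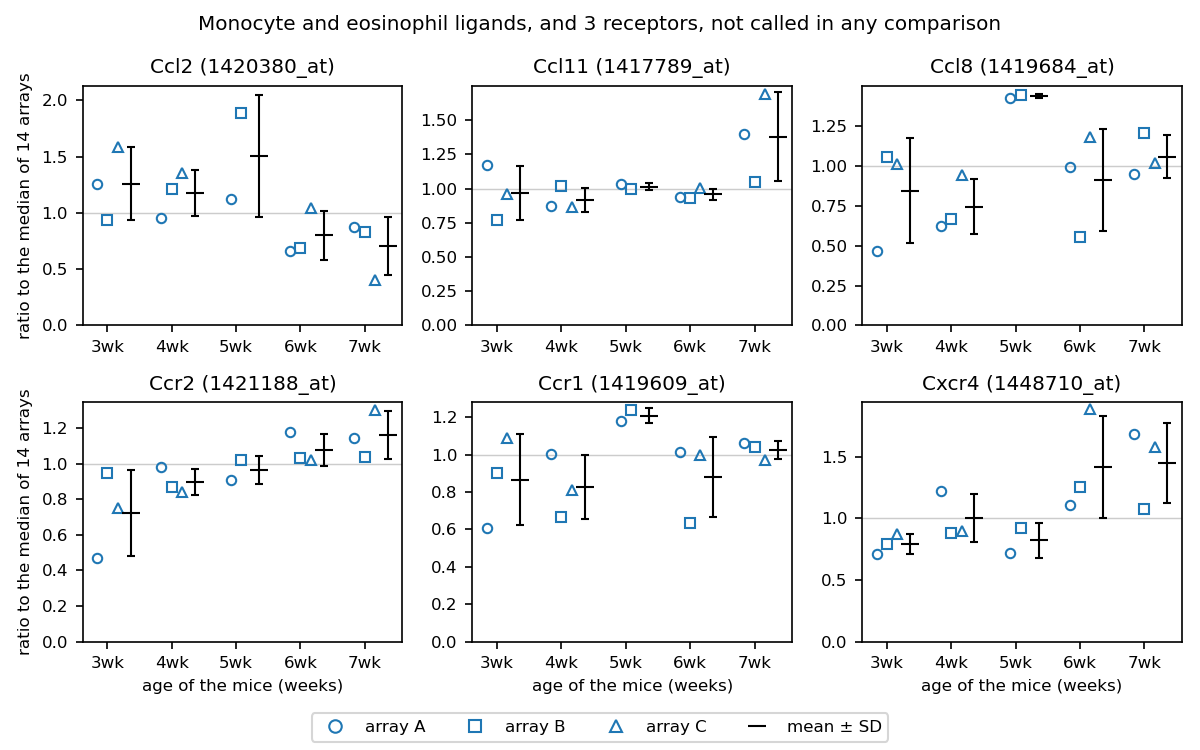
Ratio to the probe set's median array (y axis, from 0) by age in weeks (x axis) for Ccl2, Ccl11 and Ccl8 and for 1 probe set each of Ccr2, Ccr1 and Cxcr4, with a symbol for each array and the mean ± SD of each age in black (n = 3, and 2 at 5wk). None was called in any comparison, although both 5wk arrays of Ccl8 and the 7wk arrays of Ccr2 stood above all 3wk arrays.

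Ccr1, a receptor of monocytes and neutrophils, had 0.608, 0.901 and 1.09 at 3wk, 1, 0.667 and 0.811 at 4wk, 1.18 and 1.24 at 5wk, 1.01, 0.635 and 0.996 at 6wk, and 1.06, 1.04 and 0.97 at 7wk (1419609_at) and 1.12, 1.67 and 0.33 at 3wk, 0.526, 0.411 and 0.635 at 4wk, 0.896 and 1.36 at 5wk, 0.752, 1.1 and 0.34 at 6wk, and 1.18, 1.64 and 2 at 7wk (1419610_at). On the first the 5wk arrays were the 2 highest of all, and on the second all 7wk arrays lay above all 4wk and 6wk arrays. Ccr3, the eosinophil receptor of Ccl11, had 0.139, 0.341 and 0.921 at 3wk, 0.475, 1.25 and 0.161 at 4wk, 0.233 and 1.18 at 5wk, 0.325, 1.55 and 1.27 at 6wk, and 1.08, 1.35 and 1.92 at 7wk (1422957_at). Its 7wk arrays lay above all 3wk arrays, and with an SD within an age of 1.26 the difference of 2.0 (SE 0.94, adjusted p 0.278) was not called. Cxcr2, the neutrophil receptor of Cxcl1, Cxcl2 and Cxcl5, had 2.63, 1.15 and 0.977 at 3wk, 1.17, 0.925 and 1.14 at 4wk, 0.976 and 1.1 at 5wk, 0.485, 1.02 and 0.816 at 6wk, and 2.2, 0.825 and 0.972 at 7wk (1421734_at). Arrays 3wk A and 7wk A stood above the rest. The 7 neutrophil markers had a mean log2 ratio of -0.35, -0.31, 0.08, 0.35 and -0.10 from 3wk to 7wk, with Ltf called higher at 7wk against 3wk, Ltf and S100a8 at 6wk and Ltf at 5wk. Ltf is also made by mammary epithelium.

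Receptors of lymphocytes and dendritic cells varied between arrays of an age. Ccr7, which leads T cells and mature dendritic cells to lymph nodes, had 0.825, 2.25 and 3.21 at 3wk, 1.79, 0.914 and 0.999 at 4wk, 1.02 and 0.947 at 5wk, 0.745, 0.591 and 0.687 at 6wk, and 1, 7.24 and 2.2 at 7wk (1423466_at). The 3 arrays at 6wk were the lowest of the 14, and 7wk B was the highest. The difference was 1.91 at 7wk against 6wk (SE 0.65, adjusted p 0.271) and -1.43 at 6wk against 3wk (SE 0.65, adjusted p 0.207). Cxcr5, the B cell receptor of Cxcl13, had 0.708, 1.25 and 1.41 at 3wk, 1.23, 0.799 and 0.579 at 4wk, 1.17 and 0.92 at 5wk, 0.44, 0.953 and 0.633 at 6wk, and 1.07, 1.05 and 1.08 at 7wk (1422003_at). Cxcr6, the receptor of Cxcl16, had 1.23, 2.63 and 0.577 at 3wk, 1.56, 1.45 and 1.02 at 4wk, 0.801 and 0.268 at 5wk, 0.979, 0.136 and 0.604 at 6wk, and 1.17, 1.23 and 0.651 at 7wk (1422812_at) and 1.24, 1.2 and 1.43 at 3wk, 0.913, 1.01 and 0.953 at 4wk, 1.24 and 0.85 at 5wk, 0.993, 0.779 and 0.837 at 6wk, and 1.1, 1.67 and 0.966 at 7wk (1425832_a_at). On the second probe set all 3wk arrays lay above all 6wk arrays, as they did for Ccr7, and for Cxcr5 all 7wk arrays lay above all 6wk arrays.

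Markers of lymphocytes and of lymph node stroma varied over the ages too, although the labels state that the nodes were removed. The 9 T cell markers measured had mean log2 ratios of 0.49, -0.02, -0.44, -0.49 and 0.51 from 3wk to 7wk. Their 3wk arrays ran from -0.48 on 3wk A to 1.20, and so overlapped those of 5wk (-0.48 to -0.41) and 6wk (-0.64 to -0.28). The 8 B cell markers had 0.25, 0.01, -0.32, -0.49 and 0.24 from 3wk to 7wk. The 7 markers of lymph node stroma and high endothelium had 0.78, -0.12, -0.58, -0.80 and 0.45 from 3wk to 7wk. They were Madcam1, Glycam1, Lta, Ltb, Tnfsf11, Chst4 and Fcgr2b, of which Lta and Ltb were also listed under chemokine induction. Which cells made them cannot be told from whole tissue. The lymph node list ran over the arrays from -0.95 to -0.66 at 6wk, against 0.38 to 1.03 at 3wk, and was highest on 7wk B, at 1.26. Its lowest array was 4wk B, at -1.42, where Ccr7 had a ratio of 0.914, above all 6wk arrays. At 6wk against 3wk, Cd4 fell and Thy1 rose among the T cell markers, Cr2 and Fcer2a fell among the B cell markers, and Lta fell in the lymph node list. At 5wk against 3wk Cd8a fell. The part of these cells in the values of Ccr7, Cxcr5, Cxcr6 and Ccl5 was not tested.

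Cxcr3, on activated T cells, had 0.888, 1.16 and 0.952 at 3wk, 1.18, 1.05 and 0.835 at 4wk, 1.24 and 0.94 at 5wk, 1.07, 1.05 and 0.78 at 6wk, and 0.842, 1.12 and 0.846 at 7wk (1449925_at). Its arrays stayed between 0.78 and 1.24 with an F test at 0.93. Ccr9, a gut-homing receptor, has 3 probe sets. It had 0.121, 0.435 and 1.11 at 3wk, 0.35, 2.34 and 1.19 at 4wk, 0.46 and 0.559 at 5wk, 0.3, 1 and 0.998 at 6wk, and 1.37, 1.29 and 1.84 at 7wk (1421919_a_at), 0.863, 1.14 and 1.69 at 3wk, 0.642, 1.59 and 0.664 at 4wk, 0.515 and 1.77 at 5wk, 1.42, 0.701 and 0.588 at 6wk, and 2.41, 6.21 and 0.564 at 7wk (1421920_a_at) and 1.41, 0.361 and 0.503 at 3wk, 0.976, 0.0838 and 1.22 at 4wk, 0.896 and 1.02 at 5wk, 0.173, 1.38 and 0.0601 at 6wk, and 1.62, 3.48 and 1.06 at 7wk (1427419_x_at). The spread within an age was 1.06 to 1.61 on the log2 scale, and all 3 probe sets were highest at 7wk by their mean, with 7wk differences from 3wk at adjusted p 0.234, 0.663 and 0.559. Ccr10, which binds Ccl27 and guides plasma cells that make IgA, had 1.09, 1.23 and 0.547 at 3wk, 0.377, 1.92 and 0.406 at 4wk, 1.7 and 1.93 at 5wk, 0.907, 0.226 and 0.25 at 6wk, and 1.27, 0.337 and 1.25 at 7wk (1421420_at). Both 5wk arrays were high and 2 of the 3 6wk arrays low, at adjusted p 0.443 for 6wk against 5wk. Among 4 plasma cell markers, Jchain, Igha and Sdc1 were called higher at 7wk and at 6wk against 3wk, and the list's mean log2 ratio was -1.54, -0.44, 0.07, 0.28 and 0.42 from 3wk to 7wk. Sdc1 is also an epithelial gene.

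Ccr4, Ccr6, Ccr8 and Ccr1l1 were the other receptors measured. Ccr4 and Ccr6 were highest at 3wk and Ccr6 lowest at 7wk, while Ccr4 was lowest at 4wk by mean log2 ratio and at 6wk by mean ratio, with ratios from 0.255 to 1.78 and from 0.686 to 1.25. Ccr8 was highest at 7wk and lowest at 5wk, from 0.205 to 4, and Ccr1l1 highest at 3wk, from 0.728 to 1.39, and lowest at 6wk by mean log2 ratio and at 5wk by mean ratio. Their F tests gave adjusted p between 0.608 and 0.7.

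Atypical receptors were not called either. Ackr1, which carries chemokines across the endothelium of venules, had 1.02, 0.983 and 0.825 at 3wk, 1.12, 1.08 and 0.775 at 4wk, 0.808 and 1.08 at 5wk, 1.21, 1.29 and 1.2 at 6wk, and 0.878, 0.912 and 0.968 at 7wk (1432273_a_at). The 6wk arrays were the 3 highest, 0.39 above 3wk (SE 0.17, adjusted p 0.188). Ackr2, which clears inflammatory CC chemokines such as Ccl2 and Ccl11, had 1.12, 1.02 and 0.752 at 3wk, 0.557, 0.735 and 1.28 at 4wk, 1.15 and 1.17 at 5wk, 0.867, 1.1 and 0.979 at 6wk, and 1.17, 0.925 and 0.725 at 7wk (1422111_at) and 1.39, 0.591 and 0.664 at 3wk, 1.65, 1.4 and 1.41 at 4wk, 0.75 and 0.904 at 5wk, 4, 0.85 and 1.32 at 6wk, and 0.653, 0.66 and 0.642 at 7wk (1422112_at). On the second probe set all 4wk arrays exceeded all 3wk arrays and 6wk A stood alone at 4, while the first showed no such order. Ackr3, which takes up Cxcl12, had 0.977, 0.929 and 0.946 at 3wk, 0.79, 0.839 and 1.06 at 4wk, 1.02 and 1.28 at 5wk, 1.05, 1.06 and 0.707 at 6wk, and 1.47, 1.06 and 0.928 at 7wk (1417625_s_at). Ackr4, which takes up the Ccr7 and Ccr9 ligands, had 3.42, 0.495 and 0.693 at 3wk, 1.35, 0.509 and 1.31 at 4wk, 1.7 and 1.33 at 5wk, 1.37, 0.447 and 1.4 at 6wk, and 0.633, 0.58 and 0.397 at 7wk (1426139_a_at). The 7wk arrays of Ackr4 were low, while 3wk A was the highest and the other 3wk arrays were low too. Endothelial markers, 6 measured, had a mean log2 ratio of -0.07, 0.26, -0.02, -0.01 and -0.13 from 3wk to 7wk, with Vwf called higher at 7wk and 6wk against 3wk.

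**Figure D5:**
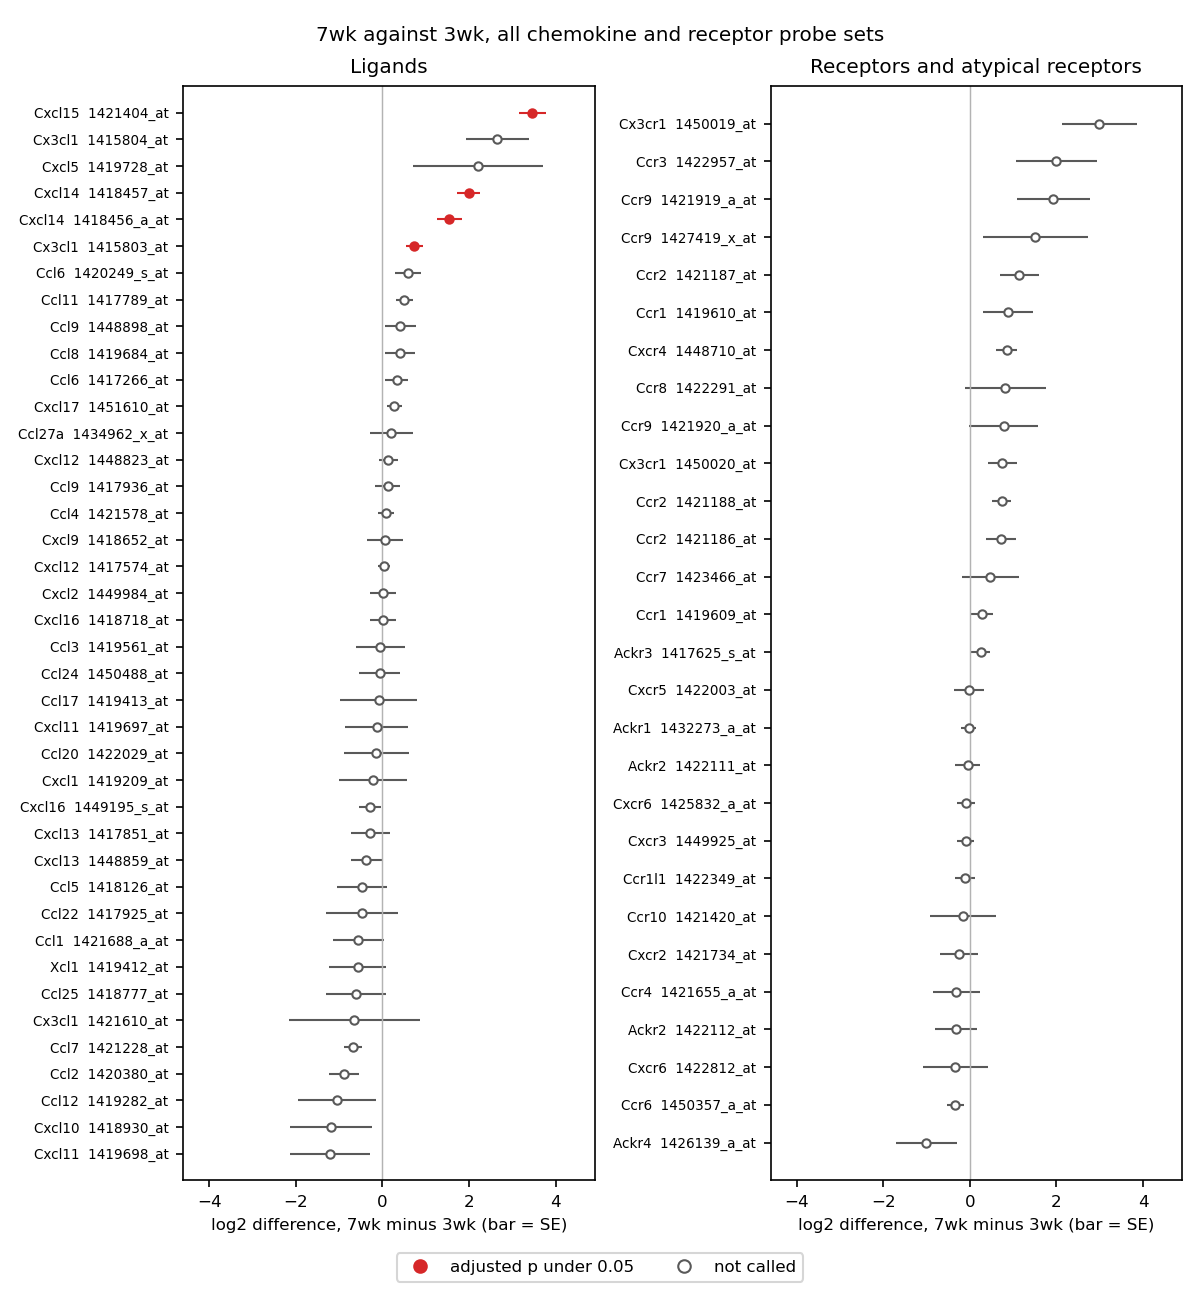
Difference in log2 ratio at 7wk minus 3wk (x axis, point) with its standard error (bar) for the 40 ligand probe sets on the left and the 28 receptor and atypical receptor probe sets on the right, in order of size, filled red where the adjusted p was under 0.05. The 4 red points belong to Cxcl15, both probe sets of Cxcl14 and 1 of Cx3cl1, and several unfilled points lie as far from 0 with wider bars.

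The genes around the family were described from 3 lists. Of 53 measured genes of receptor signalling, 3 were called higher and 1 lower at 7wk against 3wk (median log2 difference 0.15, against 0.07 over all genes), where 4.51% of all genes were called higher and 1.98% lower. Ptk2b, a kinase of cell migration, rose by 1.66 (SE 0.34), Gng12 by 0.54 (SE 0.14) and Grk5, which phosphorylates active receptors, by 0.53 (SE 0.12), while the G protein subunit Gng11 fell by 0.75 (SE 0.18). At 6wk against 3wk Gng12 and Grk5 rose, and Akt2 and Rasgrp2 fell. The list's median there was 0.06, against 0.03 over all genes, of which 6.37% were called higher and 2.92% lower.

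Of 28 other attractants and modifiers of chemokines, 5 were called higher and 0 lower at 7wk against 3wk. They were Sdc1, a proteoglycan that can hold chemokines, with 1.89 (SE 0.20), Dpp4, a protease that trims them, with 1.51 (SE 0.37), Cd74, a receptor of Mif and chaperone of MHC class II, with 1.51 (SE 0.27), Cmtm8 with 1.03 (SE 0.21) and Cmtm6 with 0.65 (SE 0.12). The median was 0.12. At 6wk against 3wk Sdc1, Cd74, Cmtm6 and Cmtm8 rose and Ptafr, the receptor of platelet-activating factor, fell by 1.30. At 5wk Sdc1 and Cmtm8 rose, and at 4wk Sdc1 alone rose (1.48, SE 0.20), where 0.0968% of all genes were called. The third list held 33 measured genes of chemokine induction, receptors and regulators among them. Of these, Il17b rose by 4.41 at 7wk (SE 0.81), 6.20 at 6wk (SE 0.81) and 5.84 at 5wk (SE 0.91) against 3wk. Against 3wk too, Il6st rose by 0.50 at 7wk (SE 0.13) and Lta fell by 2.10 at 6wk (SE 0.54). No other gene of this list was called in these comparisons, Tnf, Il1b, Ifng and the NF-kB subunits Rel, Rela, Relb and Nfkb2 included, and the list's median at 7wk was 0.15.

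Control probe sets also differed between ages. The 5′ to 3′ log2 ratio of the actin controls averaged -0.44 at 6wk and 0.11 at 7wk, against 0.07 at 3wk. That of the pyruvate carboxylase controls differed more, with -0.95 at 5wk, -2.37 at 6wk (-2.78 to -1.81 over the arrays) and 0.82 at 7wk, against -0.09 at 3wk (-0.66 to 0.32). Arrays 6wk A and B had the lowest actin values, -0.46 and -0.79, against -0.08 on 6wk C. With both left out, the 6wk against 3wk difference rests on 6wk C alone. It was then 0.53 for 1417574_at of Cxcl12 (0.55 with all arrays), 0.86 for 1415803_at of Cx3cl1 (0.75) and 2.06 for 1418456_a_at of Cxcl14 (1.84). Pyruvate carboxylase was low on 6wk C too, at -1.81. The part of these controls in the 5wk and 6wk differences of members was not tested. The mean of the hybridisation controls was -0.15 at 6wk and -1.21 at 7wk, against 0.15 at 3wk. With that mean as a covariate, Cxcl15 kept all its calls, 1418457_at of Cxcl14 had 1.90 at 7wk against 3wk (adjusted p 0.0709) in place of 1.99 and 1.66 at 5wk against 4wk (adjusted p 0.121) in place of 1.71, 1418456_a_at had 0.84 at 7wk against 3wk (adjusted p 0.292) in place of 1.54, and 1415803_at of Cx3cl1 had 0.55 there (adjusted p 0.412) in place of 0.74. The calls of Cx3cl1 and Cxcl12 at 6wk (0.0583 and 0.0636) and the F calls of Cx3cl1 and Ccl7 (0.226 and 0.0903) were lost with it too. Dendritic and antigen-presenting markers (8 measured) had H2-Ab1, H2-Aa and H2-Eb1 called higher at 7wk and 6wk against 3wk, and of the 8 mast cell markers Kit alone was called, higher at 7wk, 6wk and 5wk. These called genes did not stand for their lists. The median log2 difference from 3wk at 7wk, 6wk and 5wk was 0.68, -0.07 and 0.18 for the dendritic list. For the mast cell list it was 0.09, -0.34 and 0.11. Natural killer (6), fibroblast (6) and skeletal muscle (5) markers had 0 calls in the comparisons with 3wk by limma. Of 4 adipocyte markers, Adipoq and Fabp4 fell at 7wk against 3wk.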

How the data were processed

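RNA pools were hybridised to Affymetrix mouse arrays, labelled with biotin per the labels' protocols. The deposited values are linear ratios that the authors had set relative to each probe set's median, as the values show: among the 22690 probe sets 98.5% have their middle value within 0.001 of 1. The sources used here do not name the software that made the signals or its scaling. Array medians ran from 0.953 to 1.02, and no further normalization was applied.

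Log2 was taken of the ratios without an offset, the 64 control probe sets were dropped, and 22626 probe sets were tested. The design had assumed a filter on levels recovered from whole steps in the ratios. With divisors of at most 400 steps 41 probe sets lay on such a step, and 29 did after each value was shifted at random by up to 1%; with at most 600 the counts were 2681 and 2743. So no level was taken as recovered and no filter was used. The precision is limited by the number of arrays.

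limma 3.58.1 in R 4.3.3 fitted age as a factor over all 14 arrays, with an F test and 7 two-sided comparisons, Benjamini-Hochberg adjustment over all probe sets and a threshold of 0.05. It was tested on simulated data. Plots were drawn with matplotlib 3.10.9, and tables with pandas 2.3.3 and numpy 2.4.6 under Python 3.11.15. Genes in lists were the mean log2 ratio of their probe sets. Gene names came from the platform annotation, of which 20351 of 20380 single-gene probe sets matched RefSeq by gene identifier. The members and lists were chosen with earlier results of these data known. Per-array values were given by rule for called members and for a list of members of interest, and the others by range. Same-letter arrays did not deviate together over all probe sets (correlations -0.04 to 0.04 over 26 pairs). A link limited to some probe sets cannot be seen in this way, and the letter was used as a block only in an alternative. Alternatives were 2 offsets, 2 normalizations, a covariate, array weights, robust moderation, a replicate block, gene means, and arrays left out.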

Additional observations from a re-analysis of the deposited data

How the results depend on the processing

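None of the 14 called differences of members changed sign in any of 24 alternatives, of which 14 each left out 1 array. In each of these differences the arrays of the ages compared did not overlap. Leaving arrays out or adding an offset could therefore not change a sign, and most of the alternatives say nothing on it. All members were refitted, but the differences not called in the main fit were not followed one by one. Some of them became called with 1 array left out, since the counts below reach 5 at 7wk and 6 at 6wk. Of 192 recomputed counts of called members, 150 equalled the reported count or stayed within 1.5 times it. The 192 include the comparisons with a reported count of 0, where leaving out 1 array gave 0 each time. The pooled share therefore does not describe the tests that had calls, which are given below. Cxcl15 kept its F, 7wk, 6wk and 5wk calls in all 24. The F count of 5 became 3 with the hybridisation controls as a covariate, with gene means or with the replicate block, and 2 without 6wk A and B. At 7wk against 3wk the count of 4 became 1 with that covariate. At 6wk against 3wk the count of 5 became 3 with quantile normalization, the covariate or the replicate block, and 2 with gene means or without 6wk A and B. At 5wk against 4wk the count of 2 became 1 with the covariate, gene means, robust moderation or without 6wk A and B, and 0 with the replicate block. Leaving out 1 array gave 3 to 4 F calls, 2 to 5 at 7wk, 3 to 6 at 6wk, 2 to 3 at 5wk, 0 to 2 at 5wk against 4wk, and 0 to 0 elsewhere. Over all probe sets those ranges were 973 to 1173 for the F test (1482 with all arrays), 634 to 1213 at 7wk (1264), 1217 to 1975 at 6wk (2085), 139 to 470 at 5wk (498), 0 to 19 at 4wk against 3wk (9), 12 to 88 at 5wk against 4wk (73), 0 to 31 at 6wk against 5wk (38) and 23 to 160 at 7wk against 6wk (95). Gene means count genes in place of probe sets, and fewer arrays leave fewer degrees of freedom; beyond that the cause was not tested. A stricter filter on level was not run, since no level could be recovered, and a setting without a filter is the one reported. Without signal over background, dim probe sets among the noisy members cannot be told apart from variable ones.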

Other observations

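Another 4 probe sets name several genes, some of them of the family, and no gene can be assigned to them. A probe set annotated to 9 symbols, copies of Ccl21 among them (1419426_s_at), had ratios of 1.39, 2.81 and 1.28 at 3wk, 1.25, 0.476 and 1.88 at 4wk, 0.291 and 0.244 at 5wk, 0.2, 0.204 and 0.258 at 6wk, and 1.16, 2.45 and 0.844 at 7wk. Every 5wk and 6wk array lay below every other array. Ccl21 is known as the ligand that draws Ccr7-bearing cells into lymph nodes. The probe set fell by 2.97 at 6wk against 3wk (SE 0.52, adjusted p 0.00647) and by 2.68 at 5wk against 3wk (SE 0.58, adjusted p 0.04). At 7wk against 6wk the difference was 2.61 (SE 0.52, adjusted p 0.0653). The lymph node stroma and high endothelium markers were also lower on all 5wk and 6wk arrays than on all 3wk arrays, and their part in this difference was not tested.

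A probe set whose symbols include copies of Ccl19, the other Ccr7 ligand (1449277_at), had 1.48, 5.76 and 3.28 at 3wk, 1.15, 0.308 and 2 at 4wk, 0.757 and 0.379 at 5wk, 2.08, 0.487 and 0.847 at 6wk, and 0.325, 2.79 and 0.468 at 7wk. It was not called in any comparison (F test 0.421). The pair whose 5 symbols include copies of Ccl27 had 0.971, 0.979 and 0.726 at 3wk, 0.678, 0.673 and 0.996 at 4wk, 1 and 1.69 at 5wk, 1.19, 1.27 and 1.42 at 6wk, and 0.823, 1.3 and 1.35 at 7wk (1419188_s_at) and 0.641, 0.316 and 0.384 at 3wk, 3.15, 0.468 and 2.83 at 4wk, 1.02 and 2.7 at 5wk, 4.79, 3.15 and 2.09 at 6wk, and 0.391, 0.983 and 0.765 at 7wk (1430375_a_at). The second rose by 2.89 at 6wk against 3wk (SE 0.71, adjusted p 0.029), and the first had 0.54 there (adjusted p 0.23).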
